A study of Homo sapiens with 8 samples.

Results

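The proteasome subunits and activators described here were a list of 42 gene symbols covering the core particle, the immunoproteasome subunits, the regulatory particle, its assembly chaperones, the proteasome activators and the maturation factor POMP. Of these, 37 had at least 1 probe set that the array annotation assigns to a single gene, with 70 probe sets in all, out of 19775 genes and 54675 probe sets on the array. Each gene was represented by the probe set with the highest mean over the 8 arrays. PSMA6 and PSME2 had only probe sets shared with another gene symbol, and PSMC5, PSMD7 and PSMD13 matched no probe set by symbol, so these 5 genes were not analysed here.

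The proteasome is the barrel-shaped protease that degrades ubiquitin-tagged proteins in the cytosol and nucleus, among them the proteins that the p97 ATPase pulls out of the endoplasmic reticulum membrane. Its core particle stacks alpha rings, which form the gate, around beta rings, which hold the proteolytic sites, and a regulatory particle made of a base with an ATPase ring and a lid captures, de-ubiquitinates and unfolds the substrate. Cells whose proteasome is inhibited can raise subunit genes together through the transcription factor NFE2L1, which depends on p97 for its release from the endoplasmic reticulum and is then cut into its active form. Against this background, the transcripts of proteasome subunits and activators were followed in cells treated with an inhibitor of endoplasmic reticulum-associated degradation and related compounds.

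The samples were 293T cells, a line derived from human embryonic kidney that carries adenoviral sequences and the SV40 large T antigen, in 4 groups of 2 arrays. One group was the control, for which the labels state no agent or solvent, and the other groups were treated with 10 µM Eeyarestatin I (EerI), CBU-028 or 5-NA for 10 h. EerI is an inhibitor of endoplasmic reticulum-associated degradation, 5-NA is its nitrofuran-containing portion without the aromatic module, and CBU-028 is a compound that shares the nitrofuran-containing group with EerI and carries another aromatic group. All groups are of 1 cell line without a genetic change named in the labels, and the compounds were applied in duplicate, which the study calls a biological replicate. Whether the duplicates were cultures of different days or passages is not stated, and the p-values measure the spread between these samples. The titles of the 5-NA arrays carry an experiment number that the study's compound list gives to another compound, and these arrays were taken as 5-NA from their remaining labels.

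Values are log2 probe set levels as deposited. A level of 1 probe set was not compared with that of another, since probes differ in brightness, and the array-wide ranks below are descriptions. In these whole-culture RNA samples, fewer cells and less RNA per cell cannot be told apart. The 7 markers of 293T cells ranged from 8.75 to 13.77 (VIM 13.66 to 13.77) and the 5 measured lymphoid markers from 4.40 to 7.87 (PTPRC 4.40 to 4.86), in log2 levels over the 8 arrays. The 3′ minus 5′ difference of the ACTB control probe sets was 0.07 to 0.20 on 7 arrays and 0.36 on the 5-NA array of replicate 2. The duplicates of a gene differed by a median of 0.03 on the log2 scale over the members in the control group, 0.03 with EerI, 0.07 with CBU-028 and 0.06 with 5-NA, against 0.06, 0.07, 0.12 and 0.10 over all genes.

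Proteasome genes were among the brightest on the array. The mean log2 level was at least 12 for 29 of the 37 members, as for 5.94% of all genes, and at least 7 for 34 members, as for 62.7% of all genes. The median level was 12.88 for the members and 7.87 for all genes, while the brightest probe set of any array was at 15.19 to 15.25. Only PSMB8 and PSMB9, the inducible catalytic subunits of the immunoproteasome, and the base assembly chaperone PSMD5 had a mean level under 7. The third inducible catalytic subunit, PSMB10, was at 9.51 and 9.45 on the control arrays.

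The main observation was that proteasome transcripts stayed close to the control with each compound, at the probe set that stands for each gene. Most of these probe sets were bright, and dimmer probe sets of several members differed by more, as given below. A few single members, 1 of them an assembly chaperone, were called with 5-NA, in opposite directions. With EerI, 0 of 37 members passed an adjusted p under 0.05 (limma over all probe sets, Benjamini-Hochberg), against 0.769% of all genes. With CBU-028 it was also 0 of 37, against 12.6% of all genes. With 5-NA, PSMD12 rose, and PSMD10 and PSMB10 fell, so that 1 member was called higher against 7.87% of all genes and 2 were called lower against 10.9%. The 3 comparisons share the same control arrays.

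**Figure D1:**
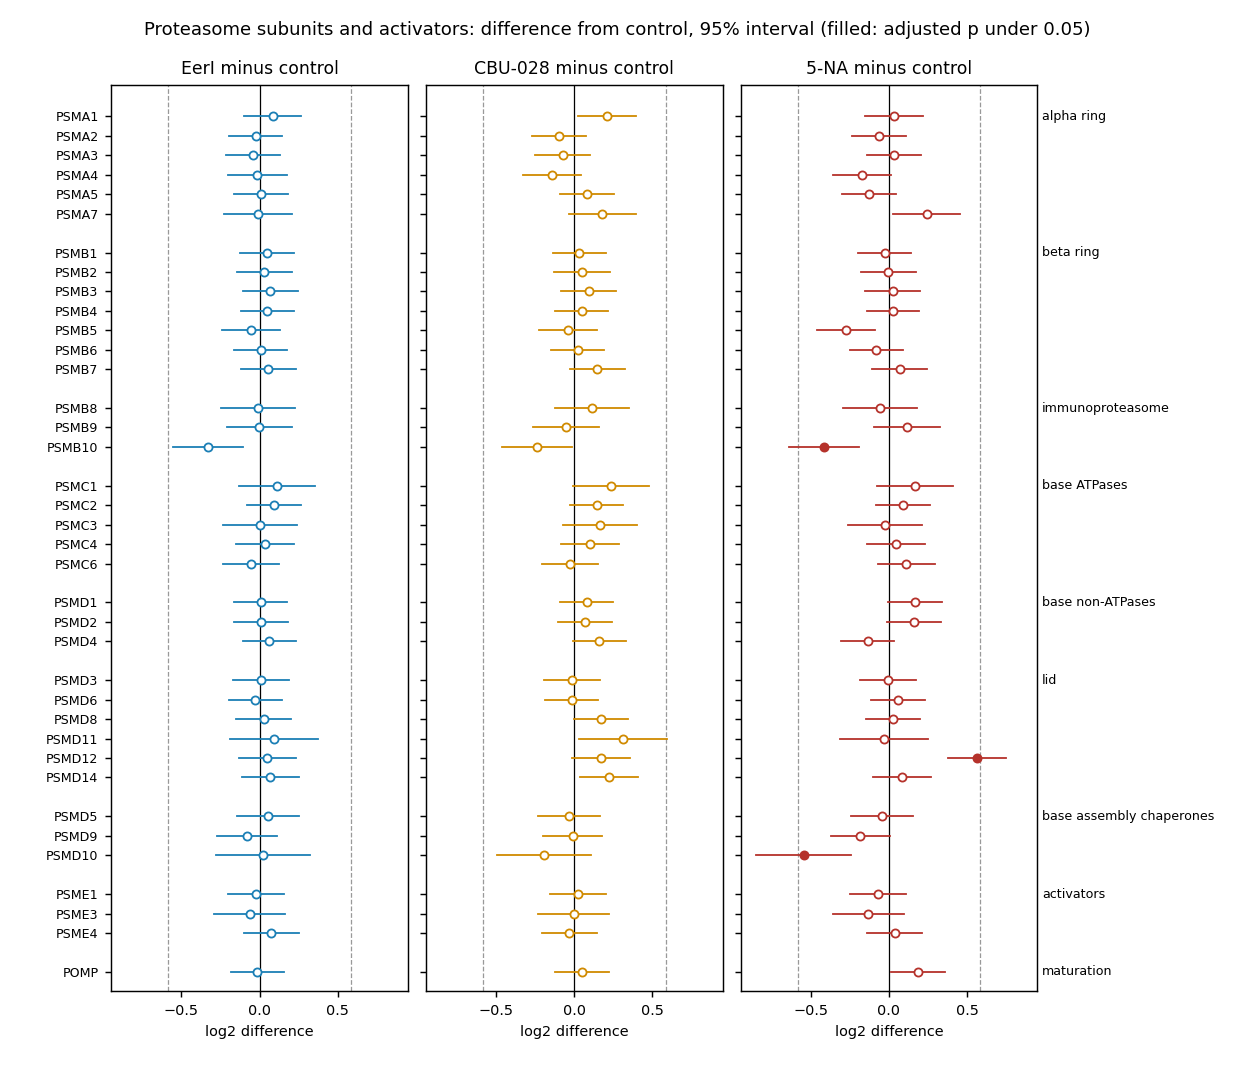
Difference from the control mean (log2, horizontal axis) of each of the 37 measured proteasome genes (rows, by structural class) with EerI, CBU-028 and 5-NA; points are differences of means of 2 arrays, bars are 95% intervals of the limma fit, filled points have an adjusted p under 0.05, and dashed lines mark 1.5-fold. Filled points appear only with 5-NA, at PSMD12 on the right and at PSMD10 and PSMB10 on the left.

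The intervals bound how large a change could have been only at the probe set that stands for each gene. Dimmer probe sets of several members differed from control by more. Among them were those of PSMA5 and PSMD11 (values below), of PSMC2 with CBU-028, and of PSMA7, PSMB7 and PSME3 with 5-NA. The 95% interval of the difference lay within 1.5-fold in either direction for 37 of 37 members with EerI (96.3% of all genes), for 36 of 37 with CBU-028 (87% of all genes) and for 34 of 37 with 5-NA (84.1% of all genes). The exception with CBU-028 was the lid subunit PSMD11, whose interval ran from 0.03 to 0.59, and those with 5-NA were the 3 called members. The median difference over the members was 0.01 with EerI, 0.05 with CBU-028 and 0.02 with 5-NA, beside 0.00, -0.01 and -0.03 over all genes. The median size of the difference, whatever its sign, was 0.04, 0.08 and 0.08 over the members and 0.08, 0.12 and 0.13 over all genes. All genes were not matched to the members for level, whose median was 12.88 for the members and 7.87 for all genes. The part of brightness in these sizes and interval shares was not tested.

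**Figure D2:**
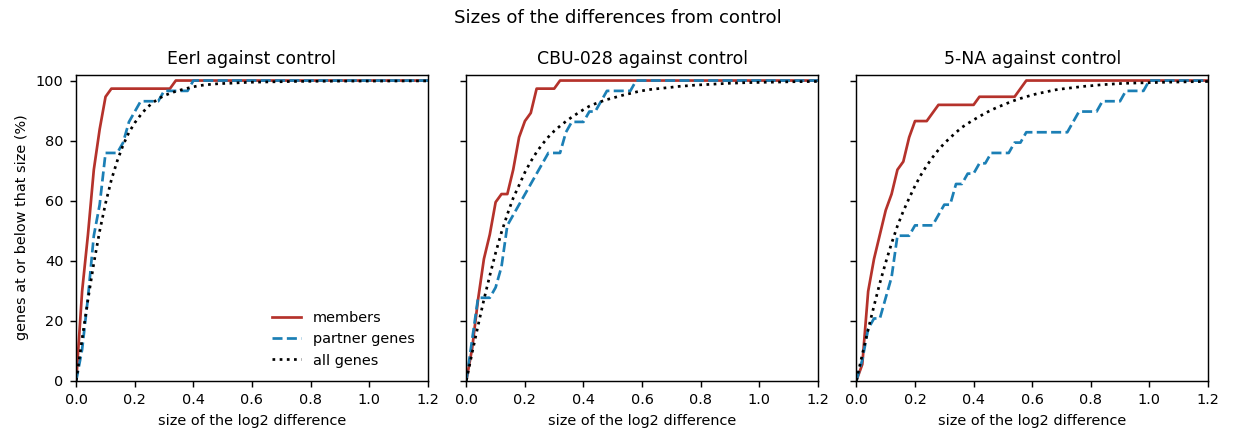
Cumulative share of genes (vertical axis, percent) at or below a given size of the log2 difference from control (horizontal axis), for the 37 members, the 29 partner genes and all 19775 genes with each compound. Above a size of 0.2 the line of the members lies above that of all genes in each panel, and with 5-NA the line of the partner genes lies below both over most of the range. All genes are not matched to the members for level.

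At an unadjusted p under 0.05, which 11.8% of all genes passed with EerI and 26.9% with CBU-028, EerI gave 0 members higher and 1 lower (PSMB10) and CBU-028 gave 3 higher (PSMA1, PSMD11 and PSMD14) and 1 lower (PSMB10). The ANOVA that the methods name, adjusted in the same way, also called 0 members with EerI (0.202% of all genes) and CBU-028 (6.42% of all genes). In limma with both a prior variance that follows the level and a robust estimate of it, CBU-028 gave 4 members higher and 0 lower (7.53% and 9.51% of all genes), namely PSMA1 by 0.21 on the log2 scale, PSMD14 by 0.22, PSMD4 by 0.16 and PSMD8 by 0.17. In the same fit 5-NA gave 4 higher (PSMD12, PSMA7, POMP and PSMD1) and 4 lower (PSMD10, PSMB10, PSMB5 and PSMA4), against 9.79% and 13.9% of all genes. Counted by whether both treated arrays lay outside both control arrays, 14 members lay above and 6 below with EerI (24.3% and 27.2% of all genes). With CBU-028, 20 lay above and 7 below (25.7% and 29.4% of all genes), and with 5-NA, 14 above and 13 below (26.2% and 36.3% of all genes).

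**Figure D3:**
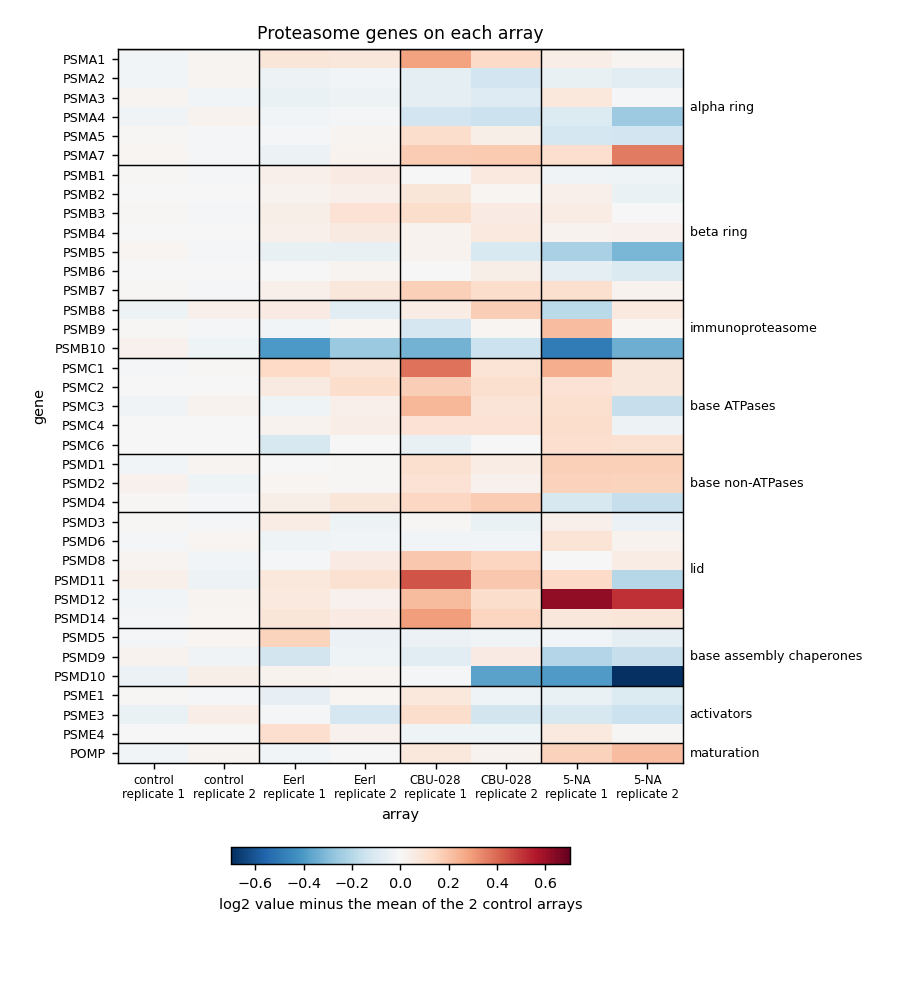
Log2 value of each measured proteasome gene (rows, by structural class) on each of the 8 arrays (columns), as the difference from the mean of the 2 control arrays (colour, from -0.7 in blue to 0.7 in red). On the 5-NA arrays PSMD12 is the deepest red and PSMD10 is deep blue, and the row of PSMB10 is blue on all 6 treated arrays.

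PSMD12, a scaffold subunit of the lid, was at 12.65 and 12.69 on the control arrays, at 12.74 and 12.70 with EerI, at 12.89 and 12.80 with CBU-028 and at 13.29 and 13.18 with 5-NA. The 5-NA arrays thus lay above the other 6 arrays, and the CBU-028 arrays lay between them and the control. The rise with 5-NA was 0.56 on the log2 scale (SE 0.08, 2 arrays against 2, 1.48-fold, adjusted p = 0.00246, limma over all probe sets). It was 0.51 against EerI (adjusted p = 0.00404) and 0.39 against CBU-028 (adjusted p = 0.0172). The other probe set of the gene rose by 0.39 with 5-NA (adjusted p = 0.00906), from 12.05 and 12.02 to 12.39 and 12.45. The call against control was kept with any 1 of the 8 arrays left out (adjusted p between 0.00158 and 0.0314), as was that against EerI, whereas the call against CBU-028 was lost without the 5-NA array of replicate 1 (0.34, adjusted p = 0.0908) and with only the compared groups fitted (adjusted p = 0.102).

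PSMD10, also known as gankyrin, chaperones the assembly of the base and is no part of the finished particle. Its control values were 12.35 and 12.43, with EerI 12.41 and 12.41, with CBU-028 12.38 and 12.01, and with 5-NA 11.99 and 11.70. The EerI arrays were within the control range, the CBU-028 duplicates differed by 0.36, the widest gap of any member in that group, and both 5-NA arrays were below all others. The fall with 5-NA was -0.55 on the log2 scale (SE 0.13, 1.46-fold, adjusted p = 0.0241, limma), and its other probe set changed by -0.48 (adjusted p = 0.0175). Against EerI the difference was -0.57 (adjusted p = 0.0222). The call against control was lost when either control array or the 5-NA array of replicate 2 was left out, with differences from -0.59 to -0.40, and by the methods' ANOVA (adjusted p = 0.154). The call against EerI was lost when either EerI array or the same 5-NA array was left out (-0.57 to -0.42), and by that ANOVA (adjusted p = 0.149). The 5-NA array of replicate 2, which had the lowest PSMD10 value, is the one with the highest ACTB 3′ minus 5′ difference, whose part in this result was not tested.

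PSMB10, the inducible subunit that replaces the trypsin-like subunit PSMB7 in the immunoproteasome, was at 9.51 and 9.45 in control cells. It was at 9.07 and 9.22 with EerI, at 9.15 and 9.33 with CBU-028 and at 8.99 and 9.13 with 5-NA. All 6 treated arrays lay below both control arrays. The difference was -0.42 with 5-NA (SE 0.10, 1.33-fold, adjusted p = 0.0216, limma), -0.33 with EerI (adjusted p = 0.259) and -0.24 with CBU-028 (adjusted p = 0.187). The compounds were not told apart at this gene, since 5-NA minus EerI was -0.08 with a 95% interval from -0.31 to 0.14. PSMB10 has 1 probe set. Its call was lost when either control array or the 5-NA array of replicate 1 was left out, and by the methods' ANOVA (adjusted p = 0.0973).

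**Figure D4:**
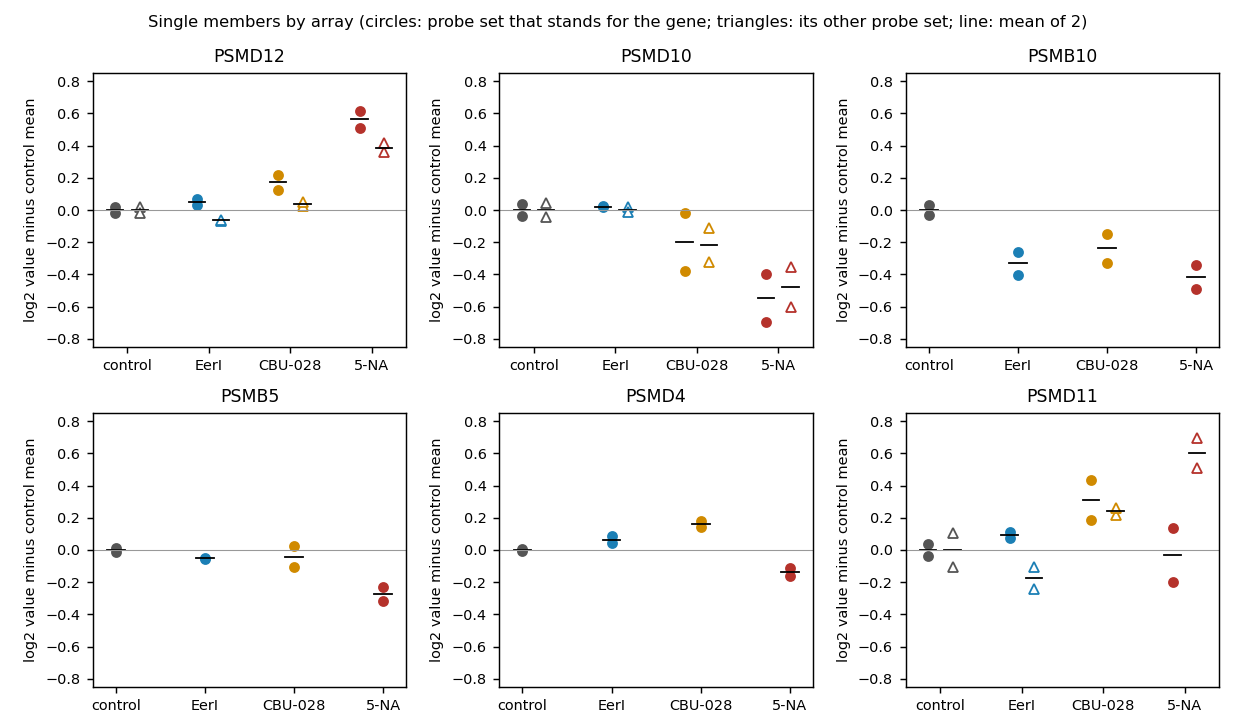
Log2 value minus the control mean (vertical axis) on each array for 6 members, by group (horizontal axis); filled circles are the probe set that stands for the gene, open triangles its other probe set where there is one, and lines the mean of 2 arrays. Both probe sets of PSMD12 are raised and both of PSMD10 lowered with 5-NA, while those of PSMD11 part.

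The regions before the start sites of these 3 genes are shown because they are the members called against control in the main fit. Another reason is that factors of the NFE2L1 and NFE2L2 family bind the antioxidant response element core TGACNNNGC. The sequences are the 250 bases upstream of the gene start on the gene's strand, from RefSeq on GRCh38.p14. Capitals mark a match to TGACNNNGC in PSMD12 and to the CCAAT box, read on the other strand, in PSMD10.
PSMD12 (chr17:67366578-67366827, minus strand): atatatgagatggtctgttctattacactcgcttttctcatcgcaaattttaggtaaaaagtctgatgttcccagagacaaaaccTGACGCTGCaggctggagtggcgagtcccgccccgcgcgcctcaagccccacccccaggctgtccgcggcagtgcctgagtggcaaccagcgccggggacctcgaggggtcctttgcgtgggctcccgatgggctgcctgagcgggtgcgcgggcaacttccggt
PSMD10 (chrX:108091543-108091792, minus strand): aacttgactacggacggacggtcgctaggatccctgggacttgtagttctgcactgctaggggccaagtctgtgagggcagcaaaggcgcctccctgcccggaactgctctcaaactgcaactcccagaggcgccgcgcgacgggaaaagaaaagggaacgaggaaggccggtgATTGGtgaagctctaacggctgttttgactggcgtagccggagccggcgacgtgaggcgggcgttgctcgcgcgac
PSMB10 (chr16:67936851-67937100, minus strand): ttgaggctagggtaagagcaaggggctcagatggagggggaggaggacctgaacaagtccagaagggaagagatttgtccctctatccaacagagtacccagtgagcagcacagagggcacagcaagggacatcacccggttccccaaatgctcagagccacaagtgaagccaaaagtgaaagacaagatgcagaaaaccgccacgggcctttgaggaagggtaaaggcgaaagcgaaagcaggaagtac
The PSMD12 window held 1 core match, with its first base at position -165 from the start site, and the PSMD10 and PSMB10 windows held none.

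Over the members, 37 of 42 symbols were in the promoter table, with 44 windows of 250 bases before to 50 after a start site. The core TGACNNNGC, searched on both strands, occurred in 13 of these 44 windows (29.5%) and in 13.3% of 35116 windows of all genes. CCAAT occurred in 40.9% of the member windows and 34.6% of all windows, TGATGNAA, a C/EBP-ATF response element, in 0 of 44 against 3.6%, and the heat shock element in 0 of 44 against 0.5%. Some core matches are shown in capitals, with up to 6 bases on each side, for members of different classes. They are not all of the matches.
PSMD12 (lid, chr17:67366728-67366748, minus strand): aaaaccTGACGCTGCaggctg
PSME4 (activator, chr2:53971013-53971033, plus strand): tgctggTGACGCTGCagccgc
PSMA4 (alpha ring, chr15:78540654-78540674, plus strand): gcacgaTGACTCTGCaccgcc
PSMB3 (beta ring, chr17:38752631-38752651, plus strand): ccgtttTGACTTTGCaaccaa
PSMD9 (base assembly chaperone, chr12:121888682-121888702, plus strand): ttccggTGACCCAGCtccgcc
PSME4 carries the same 9 letters as PSMD12 and differed from control by 0.04 on the log2 scale with 5-NA, while PSMA4 differed by -0.17, PSMB3 by 0.02 and PSMD9 by -0.18, none of them called. Among the matches not shown is that of PSMD1, which differed by 0.17 with 5-NA. It was not called in the main fit and passed by the methods' ANOVA (adjusted p = 0.0408). The 11 measured members with a match had a median difference of 0.02 with 5-NA (-0.18 to 0.56), and the 21 in the table without one had a median of 0.03 (-0.55 to 0.19). With CBU-028 these medians were -0.01 and 0.05.

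In the core particle, the products of the alpha ring genes form the gate. The 6 measured ones had 0 calls against control with any compound, at the probe set that stands for each gene. Over all genes the shares called were 0.769% with EerI, 12.6% with CBU-028 and 18.8% with 5-NA. A dimmer probe set of PSMA5 was called higher with CBU-028 and 5-NA (values below). At the probe sets that stand for the genes, PSMA7 was furthest from control. It was at 14.00 and 13.96 in control cells, 13.94 and 14.01 with EerI, 14.16 and 14.17 with CBU-028, and 14.10 and 14.35 with 5-NA. The CBU-028 and 5-NA arrays lay above the control arrays and the EerI arrays spanned them. The difference with 5-NA was 0.24 (95% interval 0.02 to 0.46, adjusted p = 0.137). PSMA1 was at 13.51 and 13.55 in control cells and at 13.81 and 13.67 with CBU-028, a difference of 0.21 (adjusted p = 0.164, limma).

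The catalytic subunits of the constitutive beta ring are PSMB6 (caspase-like), PSMB7 (trypsin-like) and PSMB5 (chymotrypsin-like, the main target of bortezomib). PSMB5 was at 13.40 and 13.38 in control cells, at 13.34 and 13.34 with EerI, at 13.41 and 13.28 with CBU-028 and at 13.16 and 13.07 with 5-NA. Both 5-NA arrays were below the other 6, and the difference of -0.27 just missed the threshold (95% interval -0.46 to -0.09, adjusted p = 0.0563). It passed when probe sets with a mean level under 7 were left out before the fit (adjusted p = 0.0197, limma). PSMB6 differed from control by 0.01 with EerI, 0.02 with CBU-028 and -0.08 with 5-NA. PSMB7 differed by 0.05, 0.15 and 0.07, none of them called. Over the 7 beta ring genes the differences from control ran from -0.05 to 0.07 with EerI, from -0.04 to 0.15 with CBU-028 and from -0.27 to 0.07 with 5-NA.

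The inducible counterparts of PSMB5 and PSMB6 in the immunoproteasome are PSMB8 and PSMB9. PSMB8 was at 5.63 and 5.70 on the control arrays and at 5.48 and 5.74 with 5-NA, and PSMB9 at 6.25 and 6.24 and at 6.46 and 6.26. The PSMB8 duplicates with 5-NA lay on both sides of the control arrays, and no call was made for either gene with any compound. Both are dim on the array.

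In the regulatory particle, the base ATPases (PSMC genes) unfold the substrate. At the probe set that stands for each gene, 0 of 5 were called against control. The shares of all genes were 0.769% with EerI, 12.6% with CBU-028 and 18.8% with 5-NA. PSMC2 was called higher with CBU-028 when its probe sets were averaged (below). At these probe sets PSMC1 was furthest from control. It was at 12.87 and 12.89 in control cells, 13.02 and 12.97 with EerI, 13.26 and 12.98 with CBU-028 and 13.13 and 12.96 with 5-NA. All 6 treated arrays were above the control arrays, with a difference of 0.24 for CBU-028 (95% interval -0.01 to 0.48, adjusted p = 0.23, limma). Without CBU-028 replicate 2 that difference was 0.38 and was called (adjusted p = 0.0406, limma). With CBU-028 both arrays lay above both control arrays for 4 of the 5 ATPase genes, for 3 of 3 base scaffold and ubiquitin receptor genes (PSMD1, PSMD2 and PSMD4) and for 4 of 6 lid genes, beside 25.7% of all genes. The mean over the 6 lid genes was 0.19 above control on the CBU-028 array of replicate 1 and 0.09 on that of replicate 2.

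PSMD1 and PSMD2 are the large scaffold subunits of the base. PSMD1 was at 12.40 and 12.44 in control cells and at 12.59 and 12.59 with 5-NA, a difference of 0.17 (95% interval -0.00 to 0.34, adjusted p = 0.192, limma). Its dimmer probe set lay on both sides of the control with 5-NA, at 10.87 and 10.55 against 10.79 and 10.77. PSMD2 lay above both control values with 5-NA, at 12.39 and 12.38 against 12.25 and 12.20, with a difference of 0.16 (adjusted p = 0.224). PSMD4, a ubiquitin receptor, was lower than the control with 5-NA on both arrays at the probe set that stands for it. It was at 12.75 and 12.70 there, against 12.87 and 12.85 in control cells and 13.01 and 13.04 with CBU-028. Its other probe sets did not lie below control on both 5-NA arrays. They were at 12.58 and 12.67 (control 12.57 and 12.6), 12.78 and 12.76 (control 12.83 and 12.77) and 7.69 and 7.50 (control 7.36 and 7.47).

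In the lid, PSMD14 is the metalloprotease that removes ubiquitin chains, and it was at 13.03 and 13.06 in control cells and at 13.34 and 13.19 with CBU-028. The difference of 0.22 was not called (95% interval 0.04 to 0.41, adjusted p = 0.136, limma). PSMD11, a lid scaffold, was at 12.81 and 12.74 in control cells, at 13.21 and 12.96 with CBU-028 and at 12.91 and 12.57 with 5-NA. Its 5-NA duplicates lay on both sides of the control and differed by 0.34, the widest gap of any member in that group. PSMD3, PSMD6 and PSMD8, further structural lid subunits, differed from control by -0.03 to 0.17 with any compound.

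Among the base assembly chaperones, the genes other than PSMD10 were not called at the probe sets that stand for them. A dim probe set of PSMD9 was called lower with CBU-028 (below). PSMD9 was at 12.35 and 12.29 in control cells and at 12.12 and 12.16 with 5-NA, a difference of -0.18 (95% interval -0.37 to 0.01, adjusted p = 0.204, limma). PSMD5 was dim, in the range of the lymphoid markers, at 5.37 and 5.39 in control cells and at 5.36 and 5.31 with 5-NA.

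The activators open the core particle without ATP. PSME1, a subunit of the interferon-inducible activator, differed from control by -0.02, 0.02 and -0.07 with EerI, CBU-028 and 5-NA. PSME3, the nuclear activator, was at 11.66 and 11.76 in control cells and at 11.60 and 11.56 with 5-NA, a difference of -0.13 (adjusted p = 0.458). PSME4 differed from control by 0.08, -0.03 and 0.04. POMP, which matures the core particle, was at 13.19 and 13.23 in control cells, 13.18 and 13.20 with EerI, 13.28 and 13.23 with CBU-028 and 13.37 and 13.42 with 5-NA. The POMP difference with 5-NA was 0.19 (95% interval 0.02 to 0.36, adjusted p = 0.144, limma), and it passed by the methods' ANOVA (adjusted p = 0.0476), as did the brighter probe set of PSMD1 (adjusted p = 0.0408).

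The other probe sets of the members were not all alike. Of the 33 that do not stand for a gene, 0 were called against control with EerI (0.527% of all probe sets), 1 higher and 2 lower with CBU-028 (9.67%) and 4 higher and 2 lower with 5-NA (15.2%). The dimmer probe set of PSMA5, an alpha ring gene, was at 7.10 and 6.94 in control cells, 7.20 and 6.99 with EerI, 7.76 and 7.87 with CBU-028 and 7.94 and 7.95 with 5-NA. It thus rose, from within the range of the lymphoid markers, by 0.80 with CBU-028 (adjusted p = 0.00177, limma) and by 0.92 with 5-NA (adjusted p = 0.000683), whereas the brighter one differed by 0.08 and -0.13. The dimmer probe set of PSMD11 rose by 0.60 with 5-NA (adjusted p = 0.00546), from 10.27 and 10.06 to 10.67 and 10.86, where the brighter one differed by -0.03. One probe set of PSME3 fell by 0.33 with CBU-028 (adjusted p = 0.0475) and by 0.34 with 5-NA (adjusted p = 0.0335), and a dim one of PSMD9 fell by 0.34 with CBU-028 (adjusted p = 0.0466). The other PSME3 probe sets also lay below both control arrays with 5-NA and were not called. The widest of these went from 11.67 and 11.80 to 11.40 and 11.16. One of the 4 called higher with 5-NA was a PSMD6 probe set at 3.75 and 3.70 in control cells, below every lymphoid marker, so it is not read as a level of PSMD6. When all probe sets of a gene were averaged, PSMA5, PSMC2 and PSMD11 were called higher and 0 lower with CBU-028 (6.24% and 7.36% of all genes). With 5-NA, PSMA5, PSMA7, PSMD6, PSMD11 and PSMD12 were then called higher and PSMB5, PSMB10 and PSMD10 lower (9.08% and 12.4% of all genes). The PSMD6 mean includes the dim probe set that is not read as a level of PSMD6. Its bright probe set was at 13.32 and 13.35 in control cells and at 13.43 and 13.36 with 5-NA.

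The compounds were also compared with each other, in 3 pairs at the same dose and time. Between CBU-028 and EerI, which share the nitrofuran-containing group and differ in the aromatic group, 0 of 37 members were called (3.73% of all genes), and 0 passed an unadjusted p under 0.05 (19.2% of all genes). The methods' ANOVA called 0 (0.147% of all genes). The 95% interval of the difference lay within 1.5-fold for all 37 members (92.9% of all genes), with differences from -0.22 to 0.22.

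5-NA differed from EerI, which holds the same nitrofuran-containing group joined to an aromatic module, at 2 members. PSMD12 was called higher (7.93% of all genes) and PSMD10 lower (9.66% of all genes), with the values given above, and the interval lay within 1.5-fold for 35 of 37 members (84.4% of all genes). The largest difference that was not called was that of PSMA7, at 0.25 (95% interval 0.03 to 0.47, adjusted p = 0.128, limma). Against CBU-028, 5-NA gave PSMD12 higher (6.47% of all genes) and PSMD4 lower (7.33% of all genes), and 35 of 37 intervals lay within 1.5-fold (87.1% of all genes). The PSMD4 difference was -0.30 (SE 0.08, adjusted p = 0.0383), and it was lost in the fit with any 1 of the 8 arrays left out. It was also lost with the replicate number as a block (adjusted p = 0.058), with only the compared groups fitted (adjusted p = 0.184) and, at -0.01, without probe sets that may match several transcripts. The probe set that then stood for PSMD4 was dim, at 7.69 and 7.50 with 5-NA and at 7.56 and 7.66 with CBU-028. Its other bright probe sets were at 12.58 and 12.67 with 5-NA against 12.87 and 12.87 with CBU-028, and at 12.78 and 12.76 against 12.98 and 13.04.

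Most genes that assemble, serve or control the proteasome were not called, but the share called with CBU-028 and with 5-NA exceeded that of all genes. The list was chosen with earlier results of these data known, and this excess was not tested. Of 32 such partner genes listed, 29 had a probe set, and 0 were called with EerI, where 2 were higher (ZFAND5 by 0.28 and NFE2L2 by 0.21) and 1 lower (UBQLN2 by -0.39) at an unadjusted p under 0.05. With CBU-028, 5 were higher and 1 lower, beside 5.49% and 7.1% of all genes, so that 20.7% were called against 12.6% of all genes. With 5-NA, 8 were higher and 4 lower, beside 7.87% and 10.9% of all genes, so that 41.4% were called against 18.8%. Without either control array, 0 were called higher with CBU-028 and 4 with 5-NA, and without control replicate 1, 2 were called lower with 5-NA. Without either EerI array or CBU-028 replicate 1, 2 were called higher with CBU-028. The median difference over the partner genes was 0.02, 0.04 and -0.02 with EerI, CBU-028 and 5-NA.

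**Figure D5:**
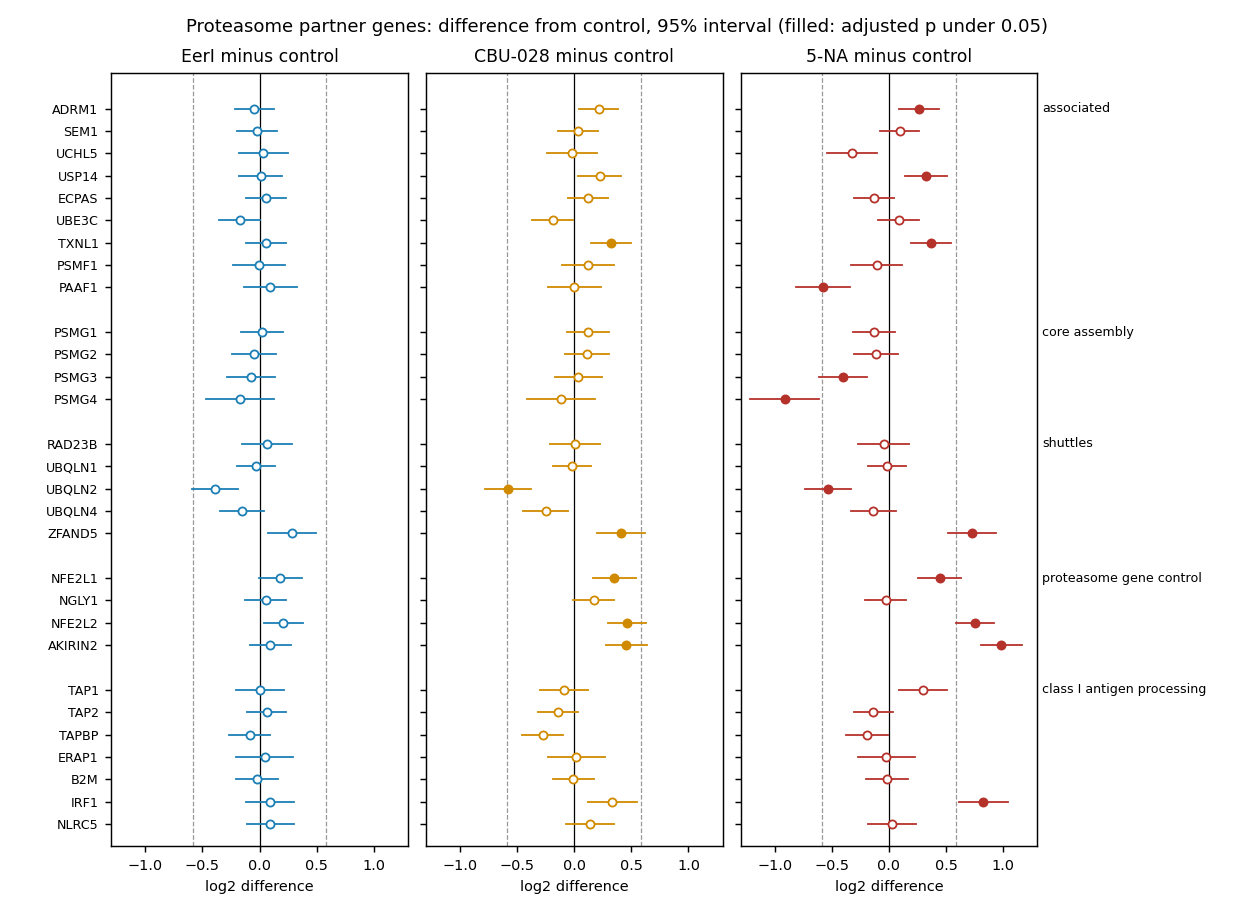
Difference from the control mean (log2, horizontal axis) of each of the 29 measured partner genes (rows, by role) with EerI, CBU-028 and 5-NA; points, bars, filling and dashed lines are as in the plot of the members. With 5-NA the filled points reach 0.98 at AKIRIN2 and -0.91 at PSMG4, and with EerI no point is filled.

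Of the 4 measured genes that control proteasome transcription or import, 3 were called higher with CBU-028 and with 5-NA. NFE2L1, the factor that raises subunit genes after proteasome inhibition, was at 10.41 and 10.46 in control cells, 10.64 and 10.59 with EerI, 10.77 and 10.80 with CBU-028 and 10.81 and 10.95 with 5-NA. It rose by 0.35 with CBU-028 (adjusted p = 0.0295, limma) and by 0.44 with 5-NA (adjusted p = 0.00743), and another of its probe sets rose by 0.51 and 0.50 (adjusted p = 0.00544 and 0.00395), while the remaining one differed by 0.26 and 0.20 and was not called. The NFE2L1 call with CBU-028 was lost with any 1 array of the control, EerI or CBU-028 groups left out, by the methods' ANOVA (adjusted p = 0.0618) and with only the compared groups fitted (adjusted p = 0.0834), and that with 5-NA was lost without either control array. NFE2L2, the related factor of the oxidative stress response, went from 10.13 and 10.16 to 10.34 and 10.37 with EerI, 10.63 and 10.59 with CBU-028 and 10.90 and 10.90 with 5-NA. Its rise was 0.46 with CBU-028 (adjusted p = 0.00593) and 0.75 with 5-NA (adjusted p = 0.000499). With the mean of all its probe sets the rise was smaller, at 0.25 with CBU-028 and 0.35 with 5-NA. The NFE2L2 call with CBU-028 was lost without either control array and with the mean of all its probe sets (adjusted p = 0.0753), and that with 5-NA was kept with any 1 array left out.

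AKIRIN2, which brings proteasomes into the nucleus, was at 11.60 and 11.66 in control cells, 11.77 and 11.67 with EerI, 12.11 and 12.06 with CBU-028 and 12.60 and 12.63 with 5-NA. The groups did not overlap, in the order control, EerI, CBU-028 and 5-NA, although control and EerI were not told apart (0.09, 95% interval -0.09 to 0.27). The rise was 0.46 with CBU-028 (adjusted p = 0.00837) and 0.98 with 5-NA (SE 0.08, adjusted p = 0.00023), and it was 0.36 for CBU-028 against EerI (adjusted p = 0.0463) and 0.53 for 5-NA against CBU-028 (adjusted p = 0.00441). The AKIRIN2 call with CBU-028 against control was lost without either control array, and that with 5-NA was kept with any 1 array left out. Its other probe sets were higher by 0.33 to 0.55 with CBU-028 and by 0.74 to 0.88 with 5-NA. NGLY1, which removes the sugars from NFE2L1, differed from control by 0.05, 0.17 and -0.03.

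Among the subunit-associated genes, TXNL1, a thioredoxin of the regulatory particle, rose by 0.32 with CBU-028 (adjusted p = 0.0319, limma) and by 0.37 with 5-NA (adjusted p = 0.0125). The TXNL1 call with CBU-028 was lost without any 1 control or EerI array or CBU-028 replicate 1, and that with 5-NA without either control array or 5-NA replicate 1. The ubiquitin receptor ADRM1 rose by 0.26 with 5-NA (adjusted p = 0.0467) and the deubiquitinase USP14 by 0.32 (adjusted p = 0.0297), whose 2 dimmer probe sets differed by 0.06 and 0.19. Both calls were lost with any 1 array of the control, EerI or 5-NA groups left out. The ADRM1 call was also lost with the arrays centred on their medians (adjusted p = 0.0608) and with only the compared groups fitted (adjusted p = 0.0578), and the USP14 call by the methods' ANOVA (adjusted p = 0.0563). PAAF1, a base assembly chaperone, fell from 10.28 and 10.25 to 9.78 and 9.60 with 5-NA, a difference of -0.58 (adjusted p = 0.0063). The only other PAAF1 probe set, with a mean level of 6.91, differed by 0.06. The PAAF1 call was lost without control replicate 1 or 5-NA replicate 2, and by the methods' ANOVA (adjusted p = 0.0629).

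Of the core particle assembly chaperones, PSMG3 and PSMG4 fell with 5-NA, while PSMG1 and PSMG2 differed by -0.13 and -0.11 and were not called. PSMG3 went from 12.34 and 12.31 to 11.83 and 12.01 (-0.40, adjusted p = 0.0182, limma) and PSMG4 from 10.80 and 10.79 to 9.68 and 10.08 (-0.91, adjusted p = 0.00244). For PSMG4, the other 4 probe sets, all dimmer, differed from control by -0.03 to 0.16 with 5-NA. The PSMG3 call was lost without either control array or 5-NA replicate 1, and the PSMG4 call was kept with any 1 array left out, but both were lost by the methods' ANOVA (adjusted p = 0.0728 and 0.057).

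Of the shuttle genes that carry ubiquitinated proteins to the proteasome, ZFAND5 rose and UBQLN2 fell with CBU-028 and 5-NA. ZFAND5 was at 11.39 and 11.30 in control cells, 11.66 and 11.60 with EerI, 11.79 and 11.72 with CBU-028 and 12.18 and 11.97 with 5-NA, a rise of 0.41 with CBU-028 (adjusted p = 0.0255, limma) and 0.73 with 5-NA (adjusted p = 0.00141). The ZFAND5 call with CBU-028 was lost without any 1 control or EerI array or CBU-028 replicate 1 and by the methods' ANOVA (adjusted p = 0.0981), and that with 5-NA was kept with any 1 array left out. A second bright ZFAND5 probe set rose by 0.73 and 1.35, and 3 dimmer ones differed by -0.16 to 0.11 and by -0.04 to 0.24. UBQLN2 was at 10.73 and 10.75 in control cells, 10.32 and 10.37 with EerI, 10.18 and 10.14 with CBU-028 and 10.10 and 10.31 with 5-NA. It fell by 0.58 with CBU-028 (adjusted p = 0.00475) and by 0.53 with 5-NA (adjusted p = 0.00472), and its difference with EerI was -0.39 (adjusted p = 0.128). In the fit without _x_at and _s_at probe sets, the other UBQLN2 probe set stood for the gene. There the difference was -0.25 with CBU-028, not called (adjusted p = 0.103, limma), and -0.36 with 5-NA (adjusted p = 0.0176).

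Among 7 class I antigen processing genes, which use the peptides the proteasome makes, IRF1, a factor that induces immunoproteasome subunits, was called higher with 5-NA. It was at 8.08 and 7.98 in control cells, 8.15 and 8.09 with EerI, 8.39 and 8.33 with CBU-028 and 8.97 and 8.75 with 5-NA, a rise of 0.83 (adjusted p = 0.000903, limma), with a second probe set higher by 1.01 (adjusted p = 0.00202). Of the immunoproteasome subunits in the same samples, PSMB10 fell by 0.42 and PSMB8 and PSMB9 differed by -0.06 and 0.11. The peptide transporter genes TAP1 and TAP2 differed by 0.30 and -0.14 with 5-NA and were not called.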

How the data were processed

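Total RNA of 293T cells was hybridised to 8 Affymetrix arrays, 2 per group. The log2 values were made by the authors with RMA (background subtraction, normalization of all arrays to a common distribution, summary per probe set) and Partek, per the labels' processing notes, which give no versions. This normalization hides a change in total RNA per cell. The methods name another array of the HG-U133 family than the Plus 2.0 array whose probe sets the table holds, and they name TRIzol with an RNeasy MinElute kit where the labels name an RNeasy kit. The number of arrays limits the precision. An exact permutation test of 2 against 2 arrays cannot go below 0.333.

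Probe sets were named through the platform annotation (41097 with 1 gene symbol, 1801 with several, 11777 with none). A model with a mean per group was fitted to all 54675 probe sets and 8 arrays with limma 3.58.1 (R 4.3.3, 4 residual and 5.08 prior degrees of freedom). Benjamini-Hochberg adjustment was over all probe sets, with calls at an adjusted p under 0.05, no fold threshold and two-sided tests, in 6 comparisons. Shares of all genes refer to the 19775 probe sets that stand for a gene. The code was tested on simulated data. No other value columns were present (0). Tables and plots were made with Python 3.11.15, pandas 2.3.3 and matplotlib 3.10.9. Promoter windows came from RefSeq, GRCh38.p14.

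The members and lists were chosen with earlier results of these data known. Named were all called members and called partner genes, the member of each class furthest from control, and the catalytic subunits with their inducible counterparts. Other members were added for their values. Alternatives changed the test, fold threshold, filter on low values, probe set per gene, normalization, prior variance, samples fitted and replicate block, and each array was left out in turn.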

Additional observations from a re-analysis of the deposited data

How the results depend on the processing

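With a 1.5-fold or 2-fold threshold, and with the methods' ANOVA at an unadjusted p under 0.05 and 2-fold, 0 members were called higher or lower in any comparison, and 0 partner genes with CBU-028. At 1.5-fold, 4 partner genes were higher and 1 lower with 5-NA, and 0 and 0 under the 2-fold rules. By the methods' ANOVA with adjusted p, 3 members were higher and 0 lower with 5-NA (1 partner gene lower), and 3 were higher against EerI. With a mean level of at least 7, 2 members were higher with 5-NA, 2 higher and 3 lower against EerI and 3 lower against CBU-028, with 1 partner gene lower for EerI and 3 lower for CBU-028. With both a trend in the prior variance and a robust estimate of it, CBU-028 gave 4 members higher, 5-NA 4 higher and 4 lower, 4 higher and 3 lower against EerI and 5 lower against CBU-028, and partner genes were 1 lower for EerI and 8 higher and 3 lower for CBU-028. For fits in this section with no share of all genes given above, that share was not counted. Their counts are therefore not read as a result about the members or partner genes. The cause was not tested.

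With the mean of all probe sets of a gene, 3 members were higher with CBU-028 (member median 0.0827), 5 with 5-NA, 2 for CBU-028 against EerI and 4 for 5-NA against EerI (member median 0.00458), with 0 lower for 5-NA against CBU-028. Without _x_at and _s_at probe sets 28 members remained, PSMD12 not among them, and the 1 member higher with 5-NA was PSMD11, by 0.60, and by 0.78 against EerI. Member medians were then 0.00265 for CBU-028, 0.0184 for CBU-028 against EerI, 0.00558 for 5-NA against EerI and -0.0251 for 5-NA against CBU-028, where 0 were higher or lower. Partner genes were 2 higher with CBU-028, and 3 higher and 2 lower with 5-NA, and PAAF1 (0.0625), PSMG4 (0.157) and ZFAND5 (-0.0306) turned direction with 5-NA, since other probe sets then stood for them. With the compared groups alone, 2 partner genes were higher with CBU-028, and 0 members higher or lower for 5-NA against CBU-028.

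Arrays of the same replicate number did not clearly deviate together: the correlation of duplicate differences between groups ran from -0.15 to 0.15. With 1 pair of arrays per group, this cannot tell whether the samples were paired. With the replicate number as a block, 0 members were lower for 5-NA against CBU-028, and no other count of members or partner genes moved by over 1.5 times, although ADRM1 lost its call (adjusted p = 0.0684, limma). A block with the EerI numbers crossed, chosen after seeing the data, called 0 members against control and for CBU-028 against EerI.

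With each array left out in turn, EerI gave 0 to 0 members and partner genes either way (member median 0.00805 to 0.0253). CBU-028 gave 0 to 1 members higher, 0 to 0 lower (median 0.0433 to 0.0743), 0 to 6 partner genes higher (0 without either control array, 2 without either EerI array or CBU-028 replicate 1) and 1 to 1 lower. 5-NA gave 1 to 1 members higher, 0 to 3 lower (0 without either control array, 1 without either 5-NA array; median -0.00995 to 0.0445), 4 to 9 partner genes higher (4 without either control array) and 2 to 5 lower (2 without control replicate 1). CBU-028 against EerI gave 0 to 0 either way (median 0.0212 to 0.0715). 5-NA gave 1 to 1 higher and 0 to 1 lower against EerI (0 without either EerI array or 5-NA replicate 2; median -0.0503 to -0.0092), and 0 to 1 higher (0 without 5-NA replicate 1) and 0 to 1 lower against CBU-028 (median -0.0977 to -0.0355). A repeated quantile normalization moved no count by over 1.5 times.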
